A study of Mus musculus with 25 samples.

Results

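*Rps13* and *Rps15a*, which encode proteins of the small ribosomal subunit, were examined with 4 of their processed copies, *Rps13-ps1*, *Rps13-ps2*, *Rps15a-ps5* and *Rps15a-ps7*. These are 6 of the 50559 gene rows that were counted, and all 6 passed the filter on low counts. They were chosen by name after a difference between genotypes had been seen on the copies, so every genotype difference of the 6 rows and of their sums is given as a description, with no test. Transcripts bound to ribosomes of spinal cord cholinergic neurons were sequenced from 6-mo-old male mice, C57BL/6J per the paper, as 24 immunoprecipitation (IP) libraries. The controls carried *ChAT-Cre* and *RiboTag* fx/+, a ribosomal protein allele that gains a hemagglutinin tag where Cre acts. The *ChAT-BKO* mice carried the same 2 alleles and *Bmal1* fx/fx, so that the clock gene *Bmal1* was deleted where Cre is expressed under control of the choline acetyltransferase gene. Both genotypes were sampled at Zeitgeber time (ZT) 8, in the light, and at ZT20, in the dark, with 6 mice in each condition. In addition, 1 library held a pooled input of spinal cord RNA. The controls carried no floxed *Bmal1* allele, so deletion of *Bmal1* and homozygosity for the chromosome that carries the floxed allele cannot be told apart.

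A processed copy arises when a mature mRNA is copied back into DNA and inserted elsewhere in the genome, which leaves a gene-like sequence without introns. The protein products of *Rps13* and *Rps15a* are built into every ribosome, and ribosomal protein genes, being among the most abundantly transcribed, have left many such copies. A sequencing read from one of these genes can match the parent and its copies equally well, or differ by a single base. The estimator used here (RSEM) divides reads that match several genes among them, which can give counts that are not whole numbers.

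In the reference annotation of GRCm38 (mm10), *Rps13* (ENSMUSG00000090862) lies on the minus strand at chr7:116331505-116334195 and *Rps15a* (ENSMUSG00000008683) on the minus strand at chr7:118104372-118116188. The former lies 3.02 Mb and the latter 4.79 Mb beyond the end of *Arntl*, the gene symbol of *Bmal1*, at chr7:113207465-113314126. Of the copies, *Rps13-ps2* lies on the same chromosome at chr7:88530446-88530898, 24.7 Mb on the other side of *Arntl*. The other 3 lie elsewhere, *Rps13-ps1* at chr8:87047689-87048226, *Rps15a-ps5* at chr5:105797321-105797713 and *Rps15a-ps7* at chr2:152185291-152185682. All 4 are annotated as processed pseudogenes. *Rps15a-ps5* lies in an intron of *Lrrc8d*, on the opposite strand, and the other 3 copies overlap no annotated gene. *Rps13* itself overlaps the small nucleolar RNA gene *Snord14a* on the same strand.

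The coding sequence of *Rps13* spans 456 bases in 6 exons. Its bases 157 to 456, spliced from the minus strand of chr7:116331550-116333093, are shown with the bases in capitals at which *Rps13-ps1* differs, since these are the only letters of the coding sequence by which a read can be told apart between the 2.
Rps13: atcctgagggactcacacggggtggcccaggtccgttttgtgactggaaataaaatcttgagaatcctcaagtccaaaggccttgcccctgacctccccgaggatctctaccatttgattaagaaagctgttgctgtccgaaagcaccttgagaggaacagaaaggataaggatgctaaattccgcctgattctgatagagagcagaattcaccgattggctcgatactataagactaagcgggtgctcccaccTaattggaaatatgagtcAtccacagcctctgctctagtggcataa

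Positions are counted from 1 at the A of the start codon of the parent. *Rps13-ps1* covered all 456 coding bases with 2 substitutions, T411C, in exon 5 of *Rps13* at position 116332390 of chromosome 7, and A429G, in exon 6 at position 116331577, so that 99.6% of the aligned bases were identical. *Rps13-ps2* covered 453 of these bases with 0 substitutions. Bases 399 to 441 are shown for all 3, with both sites in capitals, since they hold both substitutions of the aligned coding bases.
Rps13: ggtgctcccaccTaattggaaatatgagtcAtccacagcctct
Rps13-ps1: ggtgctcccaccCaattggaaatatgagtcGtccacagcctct
Rps13-ps2: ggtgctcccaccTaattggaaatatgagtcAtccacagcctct

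Within this window *Rps13-ps2* carried the letters of the parent, and *Rps13-ps1* differed at both sites. T411C was shared by 5 of the 7 copies of *Rps13* in the annotation and A429G by 3. Reads were 150 bases long and paired. Of the 150-base windows of *Rps13-ps1*, 287 of 389 (73.8%) were identical to part of a *Rps13* transcript, and of those of *Rps13-ps2*, 304 of 304. A single read from such a window carries no letter that sets the copy apart from *Rps13*. For *Rps13-ps1* its mate may, whereas for *Rps13-ps2* the mate also comes from a window identical to the parent.

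The coding sequence of *Rps15a* spans 393 bases, and *Rps15a-ps5* and *Rps15a-ps7* differ from it at more sites than the copies of *Rps13* shown above differ from theirs. Bases 1 to 300, spliced from the minus strand of chr7:118109193-118115241, are shown with each base in capitals at which *Rps15a-ps5* or *Rps15a-ps7* has another letter.
Rps15a: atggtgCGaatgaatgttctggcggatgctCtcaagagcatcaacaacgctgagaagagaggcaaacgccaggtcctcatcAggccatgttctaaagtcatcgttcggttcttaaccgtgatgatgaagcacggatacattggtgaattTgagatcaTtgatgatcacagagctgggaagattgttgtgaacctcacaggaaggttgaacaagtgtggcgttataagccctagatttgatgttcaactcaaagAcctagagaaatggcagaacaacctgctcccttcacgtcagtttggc

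*Rps15a-ps7* had 4 substitutions, C7G, G8A, T150C and C362G, and lacked 1 base. *Rps15a-ps5* had 5, namely C31T, A82T, T150C, T158A and A254G. Both shared T150C, at position 118114848 of chromosome 7 in exon 3 of *Rps15a*, as did 7 of the 8 copies of *Rps15a*. Bases 138 to 170 are shown, since they hold the site that nearly all copies have in common.
Rps15a: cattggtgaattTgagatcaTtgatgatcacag
Rps15a-ps7: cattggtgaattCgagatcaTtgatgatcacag
Rps15a-ps5: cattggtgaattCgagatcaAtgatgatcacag

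At base 150 both copies carried the same letter, and at base 158 *Rps15a-ps7* carried that of the parent. Of the 150-base windows of *Rps15a-ps7*, 62 of 243 (25.5%) were identical to part of a *Rps15a* transcript, and of *Rps15a-ps5* 0 of 244. By their letters, *Rps15a-ps5* and *Rps15a-ps7* were thus easier to tell from their parent than *Rps13-ps1* and *Rps13-ps2* from theirs.

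*Rps13* had a count that was not whole in 25 of 25 libraries, and each value above 0 on *Rps13-ps1* (15 libraries) and *Rps13-ps2* (24 libraries) was also not whole. By contrast, the count of *Rps15a* was whole in all 25 libraries. *Rps15a-ps7* had a count that was not whole in 9 of 25 libraries, and *Rps15a-ps5* in each of the 14 where it was above 0. Reads of *Rps13* were thus divided with other rows in every library.

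Total counts were between 4.04 and 31.7 M per IP library and 7.40 M in the input, which limits the precision of the rare rows. The 7 cholinergic markers were all higher in the IP libraries than in the input, by a median of 2.82 on the log2 scale, whereas 0 of 6 markers of oligodendrocytes, 1 of 6 of astrocytes, 0 of 6 of microglia and 0 of 6 of skeletal muscle were. In bulk samples, fewer cells of a type and less RNA per cell cannot be told apart. The summed level of each marker list overlapped between all 4 conditions. *Arntl* was between 6.22 and 10.9 counts per 1000000 (CPM) in the 12 control libraries and between 1.35 and 3.30 CPM in the 12 *ChAT-BKO* libraries. Its log2 fold change (log2FC) was -1.64 at ZT8 (SE 0.16, edgeR adjusted p = 1.56e-05) and -2.08 at ZT20 (SE 0.16, edgeR adjusted p = 1.98e-07). The *ChAT-BKO* ZT8 libraries of replicates 1 and 5 stood apart from the other 10 of their genotype in that they alone had counts on *Rps13-ps1*. Their *Arntl* level was 3.30 and 2.20 CPM, below every control.

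*Rps13-ps1*, the copy with 2 substitutions, was at 13.4, 18.9 and 22.1 CPM (lowest, median and highest of 6) in controls at ZT8 and at 13.5, 15.6 and 20.5 CPM in controls at ZT20. In *ChAT-BKO* neurons of ZT8 it was at 0 in 4 of 6 libraries and at 1.25 and 2.11 CPM in replicates 1 and 5, which is 16.73 and 8.62 counts. In those of ZT20 it was at 0 in all 6. The genotypes therefore did not overlap at either time point. The ZT8 means were 17.9 ± 3.42 CPM (SD, n = 6) for controls and 0.560 ± 0.909 CPM for *ChAT-BKO*, and the former was 31.9 times the latter. At ZT20 the control mean was 16.6 ± 2.91 CPM, and the level in *ChAT-BKO* was at least 345-fold lower, with 3 counts over the group taken as the limit that a count of 0 allows. That limit covers counting error alone, not the spread between mice or the way reads were divided among rows. Without replicates 1 and 5, every *ChAT-BKO* library left was at 0.

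*Rps13-ps2*, the copy identical to the parent, went the other way. In controls it was at 0, 0.285 and 0.779 CPM (lowest, median and highest) at ZT8 and at 0.126, 0.353 and 0.500 CPM at ZT20. In *ChAT-BKO* it was at 2.11, 5.09 and 6.08 CPM at ZT8 and at 3.36, 4.23 and 7.42 CPM at ZT20. Every *ChAT-BKO* library was above every control. The ZT8 means were 0.321 ± 0.275 CPM for controls and 4.68 ± 1.48 CPM for *ChAT-BKO*, a log2FC of 3.77 (SE 0.33). The ZT20 means were 0.334 ± 0.157 and 4.77 ± 1.45 CPM, a log2FC of 3.75 (SE 0.27). In the *ChAT-BKO* ZT8 library of replicate 5, *Rps13-ps1* and *Rps13-ps2* were given the same count, 8.62 each.

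*Rps15a-ps7* was at 5.37, 7.55 and 9.41 CPM in controls at ZT8 and at 6.70, 7.39 and 8.41 CPM at ZT20 (lowest, median and highest). In *ChAT-BKO* it was at 0.280, 0.463 and 0.824 CPM at ZT8 and at 0.132, 0.349 and 0.578 CPM at ZT20. Again the genotypes did not overlap, but unlike *Rps13-ps1* this copy kept counts in all 12 *ChAT-BKO* libraries, between 1 and 12 per library. The control mean was 14.3 times the *ChAT-BKO* mean at ZT8 (log2FC -3.83, SE 0.24) and 21.4 times at ZT20 (log2FC -4.50, SE 0.20).

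*Rps15a-ps5*, the copy with 5 substitutions, was scarce throughout. In controls it was at 0, 0.213 and 0.540 CPM at ZT8 and at 0.118, 0.479 and 0.617 CPM at ZT20, from 58.72 counts in all over 12 libraries. In *ChAT-BKO* it was at 0 in 4 of 6 libraries at ZT8, with 2.71 counts in the other 2, and at 0 in all 6 at ZT20. The ranges overlapped at ZT8, where 1 control was also at 0. They did not at ZT20, where the level in *ChAT-BKO* was at least 9.23-fold lower than the control mean of 0.445 ± 0.170 CPM, by the same limit of 3 counts over the group.

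**Figure D1:**
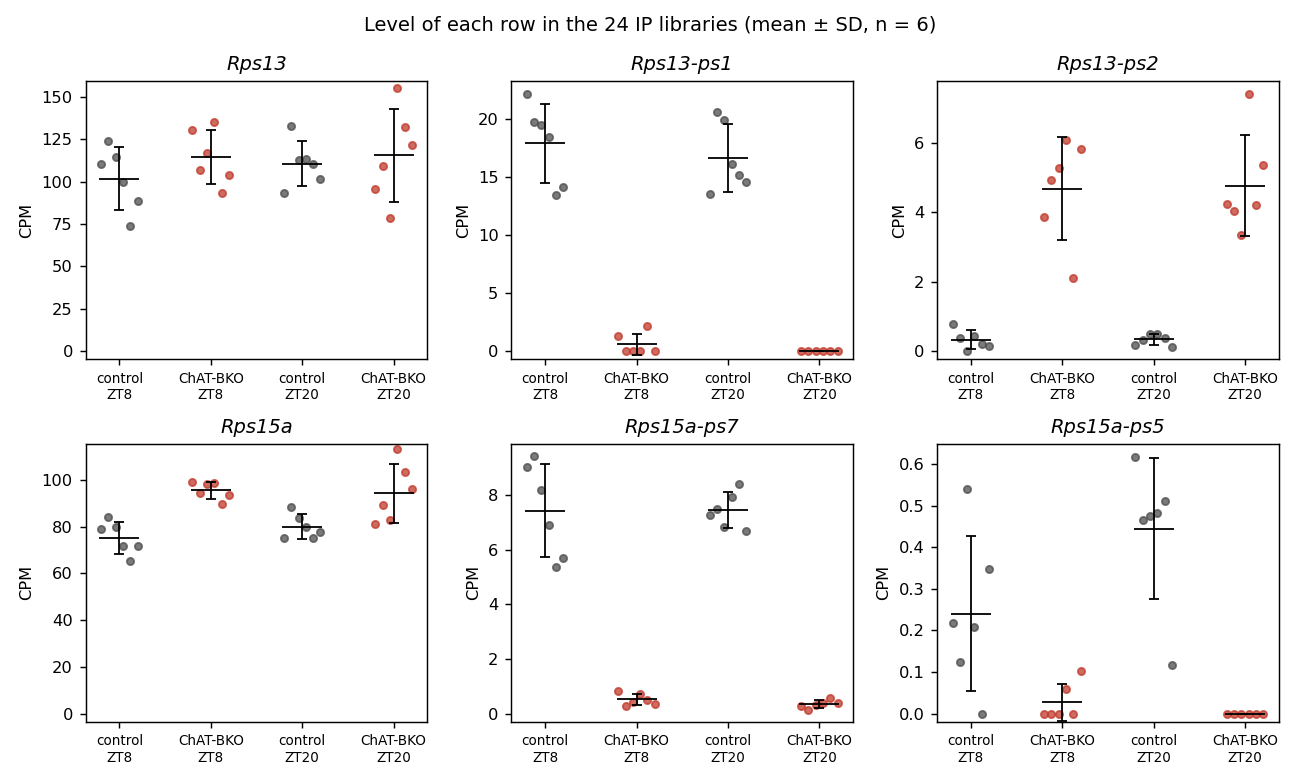
Level of each of the 6 rows (vertical axis, CPM on TMM-scaled library sizes) in the 24 IP libraries by condition, where points are libraries, the horizontal mark is the mean and the bar the SD (n = 6). *Rps13-ps1* and *Rps15a-ps7* were low and *Rps13-ps2* high in every *ChAT-BKO* library, whereas *Rps13* overlapped between genotypes at both time points.

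The parent genes differed less. *Rps13* at ZT8 was at 73.6, 105 and 124 CPM in controls and at 93.5, 112 and 135 CPM in *ChAT-BKO* (lowest, median and highest). At ZT20 it was at 93.2, 112 and 133 CPM against 78.4, 116 and 155 CPM. The genotypes overlapped at both time points, with log2FC values of 0.18 (SE 0.11) and 0.04 (SE 0.12). *Rps15a* at ZT8 was at 65.4, 75.5 and 84.0 CPM in controls and at 89.6, 96.2 and 99.2 CPM in *ChAT-BKO*, where the ranges did not overlap. At ZT20 it was at 75.1, 78.8 and 88.5 CPM against 81.0, 92.6 and 113 CPM, and 4 of 6 *ChAT-BKO* libraries were above every control. Its log2FC was 0.35 (SE 0.06) at ZT8 and 0.22 (SE 0.07) at ZT20.

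At ZT8, 4 of the 6 rows did not overlap between genotypes, which held for 0.57% of the 21738 genes tested. Of these 4, *Rps13-ps1* and *Rps15a-ps7* were lower in *ChAT-BKO*, as were 0.175% of all genes, and *Rps13-ps2* and *Rps15a* higher, as were 0.396%. At ZT20 it was also 4 of 6, beside 0.506% of all genes. There, *Rps13-ps1*, *Rps15a-ps7* and *Rps15a-ps5* were lower (0.152% of all genes) and *Rps13-ps2* higher (0.354% of all genes). Since this contrast chose the rows, nothing is read from these counts.

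Shares of the counts within a family do not depend on library size. *Rps13-ps1* held 14.9% ± 1.15 (SD, n = 6) of the counts on *Rps13* and its 2 copies in controls at ZT8, with a range of 13.6% to 16.6%, and 13.0% ± 1.04 at ZT20, with a range of 12.0% to 14.9%. In *ChAT-BKO* its share was 0.514% ± 0.886 at ZT8 and 0 at ZT20. There, the 668.22 to 1776.51 family counts per library allow shares of up to 0.169% to 0.449% by counting error alone. *Rps13-ps2* held 0.262% ± 0.200 at ZT8 and 0.257% ± 0.113 at ZT20 in controls, against 3.89% ± 1.16 and 3.96% ± 0.538 in *ChAT-BKO*. Both copies together thus held 15.2% and 13.2% of the family counts in controls (ranges 13.8% to 17.2% and 12.3% to 15.3%) and 4.41% and 3.96% in *ChAT-BKO* (ranges 3.79% to 5.32% and 3.09% to 4.56%). Of the counts on these 2 copies, *Rps13-ps2* held at most 3.40% in any control library and at least 50.0% in any *ChAT-BKO* library. In 10 of the 12 *ChAT-BKO* libraries it held all of them.

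In the family of *Rps15a*, the copy *Rps15a-ps7* held 8.87% ± 1.23 of the counts in controls at ZT8 and 8.50% ± 0.940 at ZT20, against 0.537% ± 0.206 and 0.362% ± 0.130 in *ChAT-BKO*. *Rps15a-ps5* held 0.284% ± 0.219 and 0.507% ± 0.201 in controls, against 0.0283% ± 0.0467 and 0. Neither copy had a higher mean share in *ChAT-BKO* than in controls. The parent held 90.9% ± 1.25 and 91.0% ± 1.05 of the family counts in controls, against 99.4% ± 0.206 and 99.6% ± 0.130.

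The pooled input, in which the whole tissue was sampled, fell between the genotypes. *Rps13-ps1* held 8.32% of its family counts there (64.57 of 776 counts, 95% Wilson interval 6.63% to 10.5%), below each of the 12 control libraries and above each of the 12 *ChAT-BKO* libraries. *Rps15a-ps7* held 3.69% (33.94 of 918.83 counts, 2.66% to 5.13%), likewise between the genotypes. *Rps13-ps2* held 1.07% (8.33 counts, 0.523% to 2.02%), above each control and below each *ChAT-BKO* library. The lower end of that interval fell below the highest control library. *Rps15a-ps5*, with 2.89 counts and a share of 0.315% (0.111% to 0.955%), could not be placed at this depth. These intervals cover counting error only. How much RNA of each genotype entered the pool is not given in the sources used here.

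**Figure D2:**
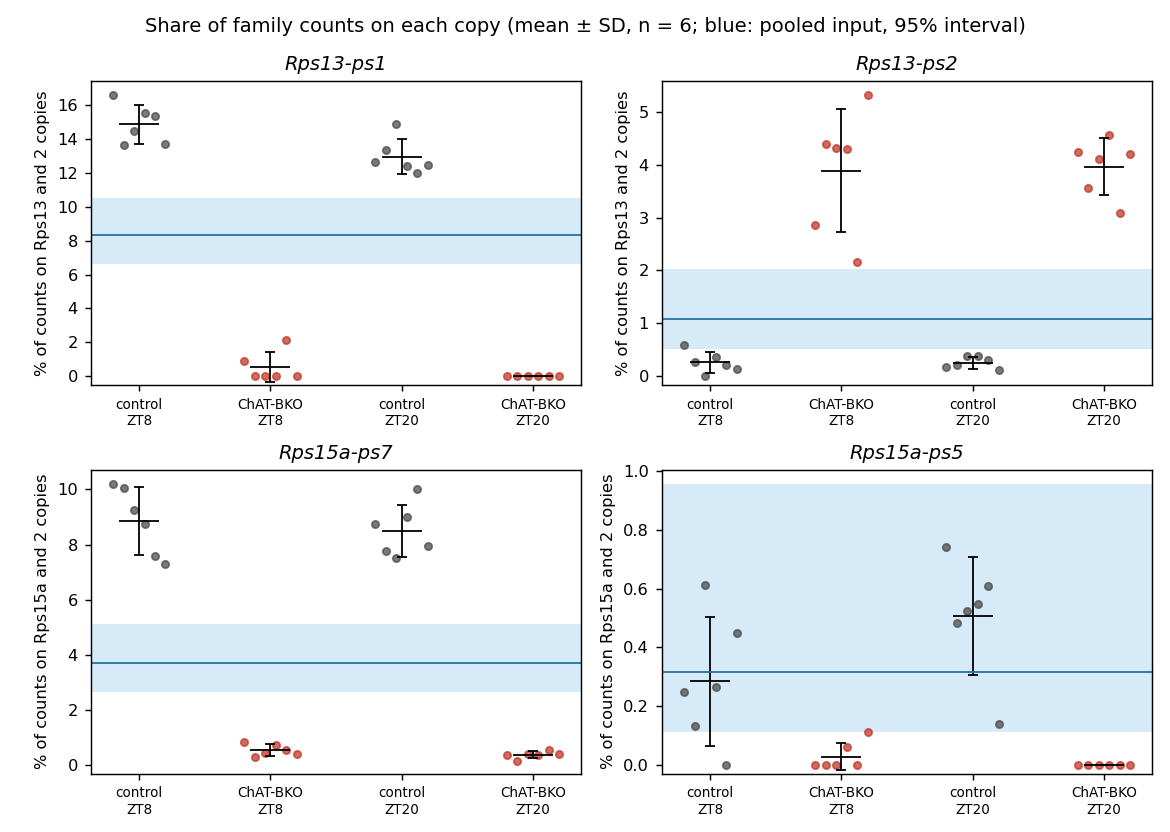
Share of the counts of a parent and its 2 copies that fell on each copy (vertical axis, %) in the 24 IP libraries by condition, where points are libraries, the mark and bar are the mean and SD (n = 6), and the blue line and band are the pooled input and its 95% Wilson interval. For *Rps13-ps1*, *Rps13-ps2* and *Rps15a-ps7* the input line lies between all 12 control and all 12 *ChAT-BKO* libraries.

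Differences between genotypes on the copies and on the parent were set side by side in CPM, not per length, since the question is about reads. At ZT8, *Rps13-ps1* and *Rps13-ps2* together were at 18.2 CPM in controls against 5.24 CPM in *ChAT-BKO*, a difference of -12.9 CPM (SE 1.49), and the parent differed by 12.7 CPM (SE 10.0). Summed over the 3 rows, *Rps13* was at 120 ± 21.6 CPM in controls and at 120 ± 16.6 CPM in *ChAT-BKO*, a log2FC of 0.01 (SE 0.11). At ZT20 the copies differed by -12.2 CPM (SE 1.36) and the parent by 4.83 CPM (SE 12.4). The ZT20 sums were at 128 ± 15.9 and 120 ± 28.5 CPM, a log2FC of -0.10 (SE 0.12). The ranges of the sum overlapped at both time points. With SEs of 10.0 and 12.4 CPM on the parent, a difference as large as that on the copies could not be resolved on *Rps13* itself.

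For *Rps15a* the parent differed by more than its copies. At ZT8 the 2 copies together differed by -7.13 CPM (SE 0.722) and the parent by 20.2 CPM (SE 3.18). At ZT20 the copies differed by -7.54 CPM (SE 0.314) and the parent by 14.3 CPM (SE 5.53), so that the excess was close to its SE at that time point. The ZT8 sum was at 83.0 ± 8.49 CPM in controls and at 96.1 ± 3.92 CPM in *ChAT-BKO*, a log2FC of 0.22 (SE 0.06), with 5 of 6 *ChAT-BKO* libraries above every control. The ZT20 sums were at 87.9 ± 5.16 and 94.6 ± 12.6 CPM, a log2FC of 0.09 (SE 0.07), with 3 of 6 *ChAT-BKO* libraries above every control and 1 below.

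**Figure D3:**
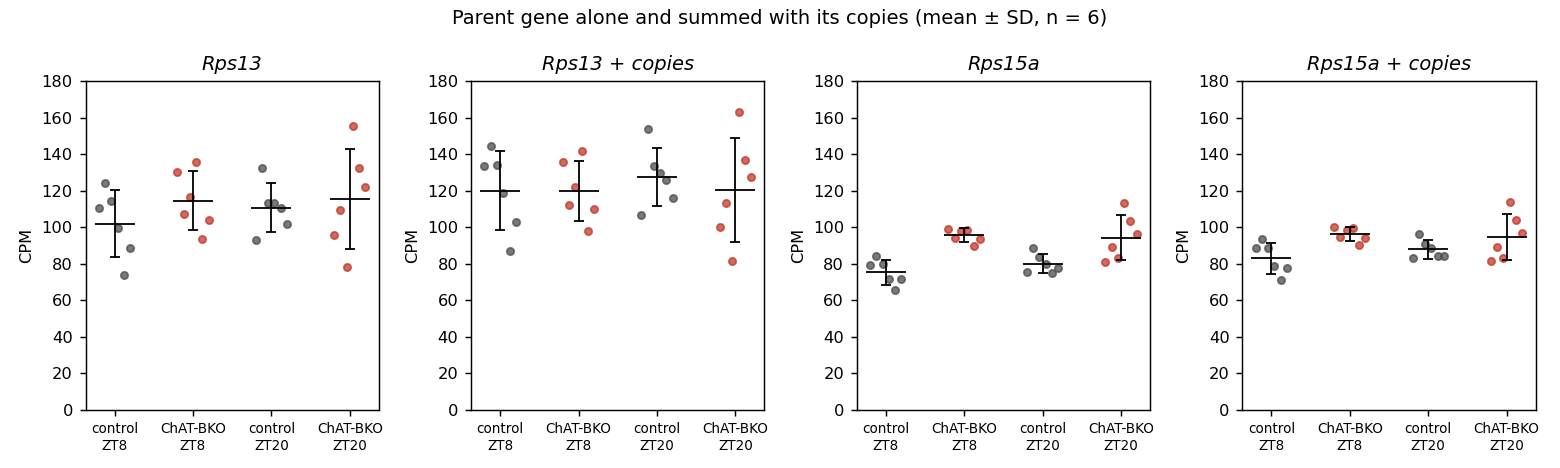
Level of *Rps13* and *Rps15a* alone and summed with their 2 copies (vertical axis, CPM) in the 24 IP libraries by condition, with the mean and SD (n = 6). After summing, the *Rps13* means at ZT8 were both 120 CPM, and those of *Rps15a* were 83.0 and 96.1 CPM.

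Time of day, which the choice of rows did not use, was tested within each genotype with edgeR's quasi-likelihood test across all 21738 genes, with Benjamini-Hochberg adjustment. In controls, 0 of the 6 rows were called at ZT20 versus ZT8 by edgeR or DESeq2 (edgeR called 0.115% of all genes), and 0 had an unadjusted p under 0.05 (8.25% of all genes did). *Rps13* had a log2FC of 0.12 (SE 0.10, adjusted p = 0.827) and *Rps15a* of 0.09 (SE 0.06, adjusted p = 0.777). Among the copies, *Rps13-ps1* had one of -0.12 (SE 0.12, adjusted p = 0.872) and *Rps15a-ps7* of 0.00 (SE 0.13, adjusted p = 0.999). Those of the rarer copies were -0.03 for *Rps13-ps2* (SE 0.48, adjusted p = 0.997) and 0.89 for *Rps15a-ps5* (SE 0.51, adjusted p = 0.682). The parents and the 2 abundant copies thus differed between time points by less than their spread between mice allowed to resolve, and the SE of the 2 rare copies was several times larger. Summed levels had a log2FC of 0.09 (SE 0.10, adjusted p = 0.894) for *Rps13* and of 0.08 (SE 0.07, adjusted p = 0.806) for *Rps15a*.

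In *ChAT-BKO*, *Rps15a-ps5* had 2.71 counts in all, passed the filter on low counts through the controls alone and could not have been called. *Rps13-ps1* had counts in 2 ZT8 libraries and in 0 of ZT20, with an unadjusted p of 0.0226 and an adjusted p of 0.415 (edgeR), which rest on those 2 libraries. Of the other 4 rows, 0 were called between time points by edgeR or DESeq2 (edgeR called 0.285% of all genes), and 0 had an unadjusted p under 0.05 with edgeR (9.42% of all genes did). *Rps13* had a log2FC of -0.00 (SE 0.13, adjusted p = 0.998), *Rps15a* of -0.03 (SE 0.07, adjusted p = 0.966) and *Rps13-ps2* of -0.08 (SE 0.21, adjusted p = 0.966). *Rps15a-ps7* had one of -0.65 (SE 0.41, adjusted p = 0.679), from 41 counts in all at ZT8 and 19.99 at ZT20. Sums had a log2FC of -0.01 (SE 0.13, adjusted p = 0.997) for *Rps13* and of -0.03 (SE 0.07, adjusted p = 0.962) for *Rps15a*.

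The difference between the genotype effects at ZT20 and at ZT8 was tested on all 24 libraries. Of the 21738 genes, 0 (0.0%) were called by edgeR and 0 by DESeq2, and 848 had an unadjusted p under 0.05 with edgeR (3.9%). Of the 4 rows that had counts in all 4 conditions, 0 had an unadjusted p under 0.05. *Rps13-ps1* and *Rps15a-ps5* were at 0 in all *ChAT-BKO* libraries of ZT20, so their difference of effects rests on how a count of 0 is fitted. Their unadjusted p was 0.0172 and 0.0389 (edgeR adjusted p = 1.00 for each), and nothing is read from it. For the sums, the difference of effects was -0.10 (SE 0.18, adjusted p = 1.00) for *Rps13* and -0.11 (SE 0.10, adjusted p = 1.00) for *Rps15a*.

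**Figure D4:**
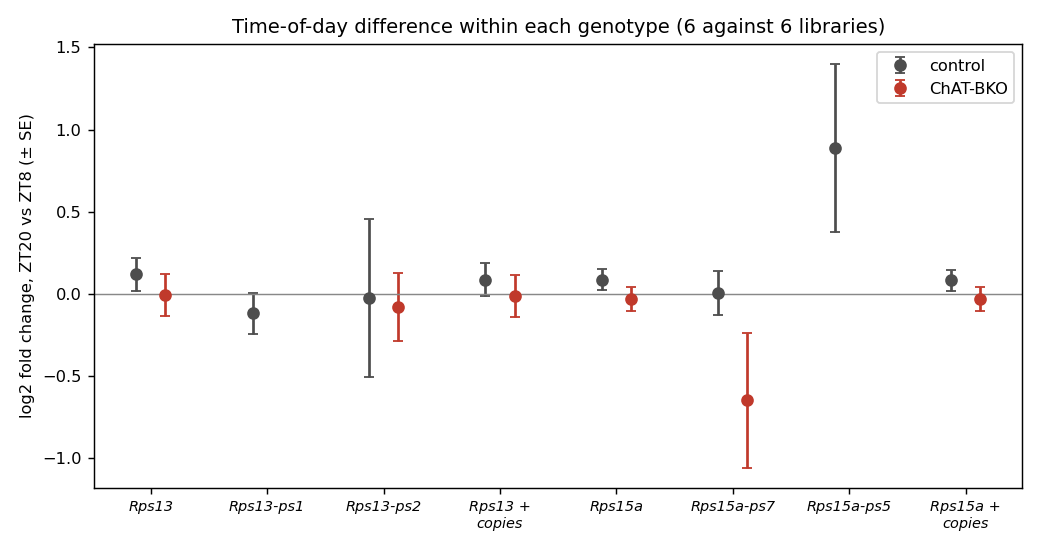
Log2 fold change of ZT20 versus ZT8 (vertical axis, ± SE from edgeR) for the 6 rows and the 2 sums in controls and in *ChAT-BKO* (6 against 6 libraries each). No point passed an adjusted p of 0.05, and *Rps13-ps1* and *Rps15a-ps5* are not drawn for *ChAT-BKO*, where they were at 0 in all ZT20 libraries.

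A further 9 rows are named after *Rps13* or *Rps15a*, of which 4 had enough counts to be tested, so that 13 copies were counted in all. Per kilobase of copy, *Rps13-ps1* and *Rps15a-ps7* had the highest mean levels of their families in controls, at 32.03 ± 5.75 and 19.0 ± 3.15 CPM per kb (SD, n = 12). In *ChAT-BKO* they were at 0.521 ± 1.26 and 1.11 ± 0.501 CPM per kb. *Rps13-ps2* was at 0.723 ± 0.472 CPM per kb in controls and at 10.4 ± 3.09 CPM per kb in *ChAT-BKO*. It was thus the copy with the highest mean level in *ChAT-BKO*. *Rps13-ps4*, with 3 substitutions (C106A, G121C and T411C), had 2.82 counts over all controls and 19.22 over all *ChAT-BKO* libraries. These came from 1 of 12 control and 4 of 12 *ChAT-BKO* libraries. *Rps13-ps5*, with 12 substitutions, had 9.63 and 1.12 counts, from 5 and 2 libraries. *Rps13-ps6*, with 36 substitutions, was at 0 throughout.

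*Rps15a-ps6* has 5 substitutions including T150C and lies in an intron of *Nudcd3* on the same strand at chr11:6172644-6173036. At ZT8 it was at 0.435, 1.16 and 1.70 CPM in controls and at 0.112, 0.297 and 0.375 CPM in *ChAT-BKO* (lowest, median and highest), without overlap, a log2FC of -2.02 (SE 0.40, edgeR adjusted p = 0.0432). The call was lost in 10 of the 12 fits that left out 1 library, with adjusted p-values of up to 0.155, and without *ChAT-BKO* ZT8 replicates 1 and 5 (log2FC -2.15, adjusted p = 0.164). At ZT20 the ranges overlapped, with a log2FC of -1.32 (SE 0.52, edgeR adjusted p = 0.702). It was the only one of the 4 tested rows to be called at ZT8, where 0.184% of all genes were called, and 0 were called at ZT20, beside 0.23% of all genes. *Rps15a-ps4*, with 10 substitutions, was at 0.847 ± 0.406 CPM per kb in controls and at 0.497 ± 0.248 CPM per kb in *ChAT-BKO*. *Rps15a-ps3* and *Rps15a-ps8* had at most 3.01 counts over the 12 libraries of a genotype, and *Rps15a-ps1* and *Rps15a-ps2*, with 21 and 18 substitutions, had 0.

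**Figure D5:**
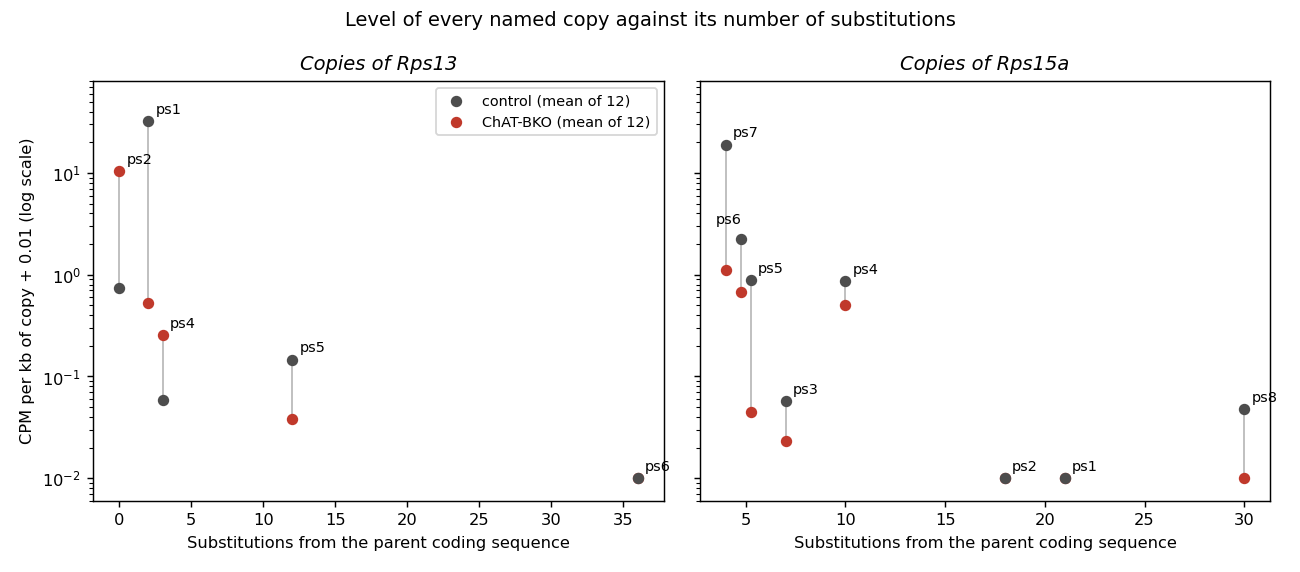
Mean level of each of the 13 copies counted (vertical axis, CPM per kb of copy plus 0.01, log scale) against the number of substitutions from the parent coding sequence (horizontal axis), in controls and *ChAT-BKO* (12 libraries each). The 2 *Rps15a* copies with 5 substitutions are drawn slightly apart. *Rps13-ps2*, with 0 substitutions, and *Rps13-ps4*, with 3, are the copies drawn higher in *ChAT-BKO*. *Rps13-ps4* had counts in only 4 of 12 *ChAT-BKO* libraries and 1 of 12 controls.

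Other genes of the small subunit were listed to show where the 2 parents stood. Of 31 such genes, 0 were called in any of the 4 comparisons or in the difference of effects by edgeR or by DESeq2, and 0 had an unadjusted p under 0.05 with either. Their median log2FC between genotypes was -0.05 at ZT8 (range -0.11 to 0.08) and -0.11 at ZT20 (range -0.27 to -0.04), beside 0.00 and -0.01 over all genes tested. Between time points the median was 0.03 in controls and -0.00 in *ChAT-BKO*. Of 308 other copies of ribosomal protein genes, 98 could be tested and 0 were called in any comparison by either tool. With edgeR, 3 of them at ZT8 and 9 at ZT20 had an unadjusted p under 0.05 between genotypes, beside 4.83% and 6.28% of all genes. Their median log2FC was 0.02 at ZT8 and -0.21 at ZT20.

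The annotated coding genes nearest to the 6 rows were also examined, 12 in all. Of these, *Arl6ip1*, which encodes a membrane protein of the endoplasmic reticulum and lies next to *Rps15a*, was the only one called. At ZT8 it was at 352 ± 18.5 CPM in controls and at 435 ± 19.2 CPM in *ChAT-BKO* (log2FC 0.31, SE 0.05, edgeR adjusted p = 0.00706). At ZT20 it was at 357 ± 8.01 and 434 ± 25.2 CPM (log2FC 0.28, SE 0.05, edgeR adjusted p = 0.00632). Without *ChAT-BKO* ZT8 replicates 1 and 5 the ZT8 value was 0.31 with an adjusted p of 0.0608. *Smg1*, which encodes a kinase of nonsense-mediated decay, was the other coding gene nearest to *Rps15a*. It had a log2FC of 0.20 (SE 0.10, adjusted p = 1.00) at ZT8 and of 0.11 (SE 0.11, adjusted p = 0.902) at ZT20. *Pik3c2a* and *Plekha7*, beside *Rps13*, had adjusted p-values of 1.00 at ZT8 and of 0.690 and 0.962 at ZT20.

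Over the 24 IP libraries, the genes whose log2 CPM was most like that of *Rps13* were *Coprs*, *Qdpr* and *Mrps6* (Pearson r = 0.96 for each, 24 libraries). For *Rps15a* they were *Ndrg2* (r = 0.90), *Arl6ip1* (r = 0.89) and *B230311B06Rik* (r = 0.88). These values describe libraries that share genotype, time point and depth. *Rps15a* and *Arl6ip1* both had higher means in *ChAT-BKO*, so likeness to *Rps15a* over both genotypes can follow that difference, and nothing is read from it. For the copies, likeness over both genotypes follows the difference by which they were chosen, so no genes are named for them.

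Set against the pooled input, *Rps13* was higher in all 24 IP libraries, at a mean of 112 ± 19.0 CPM and 70.4 CPM in the input, a log2 ratio of 0.67. The sum with its copies had a log2 ratio of 0.67 as well. *Rps15a* was at 87.3 ± 11.5 CPM and 88.3 CPM in the input, a log2 ratio of -0.01, with 11 libraries above the input and 13 below. Of the 12 control libraries, 1 was above it, and of the 12 *ChAT-BKO* libraries, 10 were. For these ratios the libraries were scaled together with the input, of which there was 1, so they have no error of their own.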

How the data were processed

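Ribosome-bound RNA of spinal cord cholinergic neurons was measured in 24 IP libraries, 1 mouse each, and 1 pooled input. Per the submitters' processing notes and the paper's methods, the authors aligned 150-base paired reads with STAR 2.7.5 to mm10, estimated expected counts per gene with RSEM against Ensembl 98 and deposited 1 table of 50559 genes without normalization, in which 6.11% of values were not whole. Copies that differ from a parent by few letters therefore hold estimates, and counts of near-identical rows are uncertain. Total counts per IP library were between 4.04 and 31.7 M. Since reads can be divided among rows, values below 1 count also occurred.

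Counts were rounded, genes with a sum of at least 10 over the 24 IP libraries were kept (21738), and libraries were scaled by TMM. Genotypes were compared at each ZT, time points within each genotype, and the genotype effects between time points, with edgeR 4.0.16 quasi-likelihood tests in R 4.3.3 and Benjamini-Hochberg adjustment over all genes at 0.05. Alternatives were DESeq2 1.42.0, its size factors in edgeR, no filter or filterByExpr, unrounded counts, 1 fit over all 24 libraries, a replicate block, sums over all rows of a family, and each library left out. On simulated counts of between 21262 and 21300 genes per comparison, with 200 genes changed by 1.5 on the log2 scale, 100% were recovered in the genotype and time comparisons and 99.5% in the difference of effects. Of the calls made on them, 6.98% at ZT8 and 7.41% at ZT20 between genotypes were false, above the threshold used, and 3.85%, 4.76% and 2.93% in controls, in *ChAT-BKO* and in the difference of effects. The changed genes were drawn only from those above a cut on mean level. *Rps13-ps2*, *Rps15a-ps5* and *Rps15a-ps7* lay below that cut, so recovery at their levels was not tested. CPM used TMM-scaled library sizes, and likeness and library deviations used log2 CPM with a prior count of 2. Positions, transcripts and copies came from GENCODE vM21, which is of the same build as the authors' annotation and another release. Copies were aligned to the coding sequence of the parent with Biopython 1.88.

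Named were the 6 rows and their sums, *Arntl*, the other rows of both families, the 3 genes most alike to each row (given for the parents alone) and the 2 nearest coding genes of each row. The members and lists were chosen with earlier results of these data known. No library pair was identical, and all columns were mapped to samples. Protein sequences were not used here.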

Additional observations from a re-analysis of the deposited data

Results flagged for a closer look

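In controls at ZT20, *Rps15a-ps5* was at 0.118 CPM in replicate 6, below the next lowest library of its group at 0.465 CPM. The gap was 0.695 of the range of the 6 libraries, above the critical value of Dixon's test at the 95% level. It was the only library far from the others of its group among 30 groups of the rows and sums tested this way, and chance flags about 1 in 20 groups. The value stands for 1.48 counts.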

How the results depend on the processing

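The numbers of genes called across the whole table moved most. At ZT8, 40 genes were called between genotypes, 70 with DESeq2, 69 with a replicate block and 18 without *ChAT-BKO* replicates 1 and 5, an alternative chosen after seeing the data. At ZT20, 50 were called and 91 with DESeq2. Between time points 25 were called in controls, 127 with DESeq2 and 86 with the replicate block, and 62 in *ChAT-BKO*, 225 with DESeq2, 140 in the fit over all 24 libraries and 23 without replicates 1 and 5. With each library left out in turn, these 4 counts ranged from 19 to 42, 29 to 69, 11 to 28 and 33 to 56, and 17 of the 72 counts with a library left out, those of the difference of effects included, moved by over 1.5 times. The libraries concerned were control replicate 4 and *ChAT-BKO* replicates 1 and 3 at ZT8, control replicates 3 and 4 and *ChAT-BKO* replicate 1 at ZT20, ZT8 replicates 1, 4 and 6 and ZT20 replicates 1, 2, 3, 4 and 6 between time points in controls, and ZT8 replicates 1, 3 and 5 in *ChAT-BKO*, and each left fewer calls. The cause of these shifts was not tested. For the difference of the genotype effects, 0 genes were called under each alternative.

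Same-numbered libraries did not deviate together, with correlations of deviations between -0.08 and 0.16 and at most 1 of 6 pairs over 0.1 in a comparison. At most 2 of 6 libraries correlated best with their own number, so no pairing by number was seen over all genes. Correlations over all genes cannot exclude a pairing that acts on some genes, and the sample titles do not say whether the numbers pair the mice. With the replicate block the other counts were 61 at ZT20, 47 in *ChAT-BKO* and 0 for the difference of effects.

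Of the genotype differences of the rows and sums, the fitted values of rows at or near 0 moved. *Rps13-ps1* at ZT8 was at -10.86 and *Rps15a-ps5* at -2.16 without replicates 1 and 5, and at ZT20 DESeq2 gave -9.66 and -4.47 for them. These fitted values depend on how a count of 0 is handled and are no bounds. Leaving out single libraries gave -6.89 to -5.34 and -3.31 to -2.16 at ZT8 and -10.83 to -10.58 and -5.81 to -5.37 at ZT20. When each row named after the parent was counted, the share of *Rps15a* was 89.3% in controls and 98.9% in *ChAT-BKO* at ZT8, and 99.2% in *ChAT-BKO* at ZT20.

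No time effect or difference of effects of the 6 rows or the sums passed an adjusted p of 0.05 under any alternative that gave one. Signs turned only in values close to 0. *Rps13-ps2* in controls was at 0.064 with the replicate block, *Rps15a-ps7* in controls at -0.0021 with DESeq2 and with its size factors in edgeR and at -0.0040 with filterByExpr, and *Rps13* in *ChAT-BKO* at 0.0033 with DESeq2. Leaving out single libraries gave -0.21 to 0.26 for *Rps13-ps2* and -0.062 to 0.10 for *Rps15a-ps7* in controls. In *ChAT-BKO* it gave -0.12 to 0.089 for *Rps13*, -0.25 to 0.024 for *Rps13-ps2*, -0.092 to 0.014 for *Rps15a*, -0.12 to 0.083 for the *Rps13* sum and -0.095 to 0.011 for the *Rps15a* sum. For the difference of effects it gave -0.28 to 0.15 for *Rps13-ps2*. *Rps13-ps1* had no time effect in *ChAT-BKO* and no difference of effects without replicates 1 and 5, since all libraries left were at 0, and filterByExpr removed the rarest rows in some comparisons. Depth limits the rare copies most, since 3 counts in the shallowest library are 0.743 CPM.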
